A study of Rattus norvegicus with 10 samples.

Results

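The respiratory chain and citrate cycle were followed through 44 nuclear genes chosen by name. They encode subunits of complexes I to V, cytochrome c, the pyruvate dehydrogenase complex and enzymes of the citrate cycle. Of these, 42 had a probe set (the group of probes that reads 1 transcript) among the 14506 genes named on the arrays, and Cyc1 and Fh were not analysed here. Where a gene had several probe sets, the brightest on average over the 10 arrays stood for it. No expression difference entered that choice between probe sets. The genes themselves were chosen with earlier results of these data known. The 42 genes divided into 13 of complex I, 4 of complex II, 3 of complex III, cytochrome c itself, 6 of complex IV, 3 of complex V, 3 of pyruvate entry and 9 of the citrate cycle.

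The citrate cycle oxidises acetyl groups from pyruvate and fatty acids and passes the electrons on as NADH and, inside complex II, as reduced flavin. Complexes I, III and IV use those electrons to pump protons across the inner mitochondrial membrane, and complex V, the ATP synthase, makes ATP from the returning protons. Proximal tubule and thick ascending limb cells are packed with mitochondria, since reabsorption of salt consumes ATP, and the proximal tubule makes little use of glycolysis.

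The kidneys came from male weanling Wistar rats killed after 6 days on a diet, and each array held a pool of 3 animals. There were 5 groups with 2 pools each. A choline-deficient diet with vegetable fat gave the necrotic group and a group without that label, called deficient vegetable oil. The same fat with choline gave the control vegetable oil group. Menhaden fish oil was given without choline (deficient fish oil) and with choline (control fish oil). Corn oil is the fat named on the samples, while the treatment protocol names corn and hydrogenated oils. How animals were sorted as necrotic was not stated, and neither fish oil group carries that label. Differences are on the log2 scale, where -1 is a 2-fold lower level, and p-values measure only the spread between pools of a group. A gene is said to have fallen or risen where its limma p, adjusted over all 29214 probe sets by the Benjamini-Hochberg method, was under 0.05.

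Markers of kidney were high: in the control vegetable oil pools Slc34a1, the phosphate transporter of the proximal tubule, was at 14.00 and 14.03, and Umod, uromodulin of the thick ascending limb, at 13.74 and 13.81. Array medians lay between 7.28 and 7.43. In whole kidney RNA, fewer cells of a type and less RNA per cell cannot be told apart.

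Nuclear genes of the chain are textbook targets of a few transcription factors: NRF1, the ETS factor GABPA, the estrogen-related receptors (ERR) and YY1. Promoters were therefore set beside the expression values, as RefSeq gives them on GRCr8. For 38 of the 42 genes the 250 bases before the annotated start were searched on both strands for TGCGCA (NRF1 core), CCGGAAG (ETS), AAGGTCA (ERR) and ATGGCGG (YY1). In 0 members did matches of different motifs overlap. The stretches below are the last 150 bases before the start, 5′ to 3′ on the gene's strand, with matches in capitals. They show the member with the largest fall (Ndufs1), 5 further members of different complexes with a match, and citrate synthase (Cs), which had the smallest difference. On GRCr8 they lie at chr9:72073606-72073755 (minus strand) for Ndufs1, chr1:30764403-30764552 (plus) for Sdha, and chr1:184599090-184599239 (plus) for Uqcrc2. Those of Cox5b, Atp5f1b, Idh3b and Cs lie at chr9:46417687-46417836 (plus), chr7:1099908-1100057 (plus), chr3:137939991-137940140 (minus) and chr7:1348239-1348388 (plus).
Ndufs1: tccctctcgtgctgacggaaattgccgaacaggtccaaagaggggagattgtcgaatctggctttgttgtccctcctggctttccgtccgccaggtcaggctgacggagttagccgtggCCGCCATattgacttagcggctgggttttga
Sdha: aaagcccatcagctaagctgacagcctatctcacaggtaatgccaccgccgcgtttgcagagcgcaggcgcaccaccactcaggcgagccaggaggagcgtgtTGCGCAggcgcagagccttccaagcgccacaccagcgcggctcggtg
Uqcrc2: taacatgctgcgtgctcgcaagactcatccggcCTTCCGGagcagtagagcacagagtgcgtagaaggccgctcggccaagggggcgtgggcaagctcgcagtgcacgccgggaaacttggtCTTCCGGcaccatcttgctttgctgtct
Cox5b: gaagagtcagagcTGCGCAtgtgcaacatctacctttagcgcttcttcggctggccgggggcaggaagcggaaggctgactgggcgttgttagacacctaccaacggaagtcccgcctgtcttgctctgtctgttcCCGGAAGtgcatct
Atp5f1b: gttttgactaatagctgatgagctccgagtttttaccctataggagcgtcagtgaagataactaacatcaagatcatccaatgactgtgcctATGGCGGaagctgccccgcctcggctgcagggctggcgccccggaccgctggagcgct
Idh3b: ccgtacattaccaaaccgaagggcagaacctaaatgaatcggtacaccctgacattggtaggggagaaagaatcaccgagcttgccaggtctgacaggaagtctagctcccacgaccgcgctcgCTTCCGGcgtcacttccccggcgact
Cs: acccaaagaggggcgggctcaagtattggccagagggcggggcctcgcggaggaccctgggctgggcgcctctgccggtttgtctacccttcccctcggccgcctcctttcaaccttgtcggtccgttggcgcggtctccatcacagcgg

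Uqcrc2 and Idh3b carried ETS letters on the opposite strand, Sdha the NRF1 core, Cox5b both, and Ndufs1 and Atp5f1b the YY1 letters. The printed stretch of Cs held none of the 4 motifs, but the searched window held the YY1 letters farther upstream, as that of Ndufs1 held ETS letters. The NRF1 core was present in 8 of 38 members (21.1%), against 8.0% of 18999 protein-coding promoters and 9.5% of the 11932 on the array. ETS letters were present in 9 members (23.7%, against 9.5% and 11.2%) and YY1 letters in 3 (7.9%, against 2.7% and 3.1%). The ERR letters were in 1 member (2.6%, against 3.2% and 2.9%). Any of the 4 motifs was present in 17 of the 38 members (44.7%, against 21.1% and 23.8%), so the printed stretches hold matches more often than the members do. A match is a description of letters, not a site of binding. Members with the NRF1 core had a median necrotic minus control vegetable oil difference of -0.71, against -0.67 in those without it. The ETS letters divided them similarly, with -0.71 against -0.66.

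The comparison of necrotic with control vegetable oil kidneys asks how the genes stood in kidneys that had become necrotic without choline. Of the 42 genes, 34 fell and 0 rose, where 10.7% of all probe sets fell and 2985 of the 29214 rose. All 42 differences were negative, with a median of -0.67 and a range from -1.34 (Ndufs1) to -0.16 (Cs), against a median of 0.05 over all named genes. In all 42 both necrotic pools lay below both control pools, an arrangement found in 26.7% of all probe sets. Among the 6308 named genes whose probe set was at least as bright as the dimmest member, 25.1% fell and the median was -0.08. The dimmest member stood at percentile 67.8 of the probe set means, and 35 members stood above percentile 90. Those 6308 genes are therefore not matched to the members in brightness. Centring each array on its median shifted the median difference over all probe sets (0.06) to -0.04 and the share of rises among all calls from 49.0% to 36.2%. The members then had 36 falls and a median of -0.77, against 34 and -0.60 after repeated quantile normalization and 33 and -0.61 after cyclic loess.

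**Figure D1:**
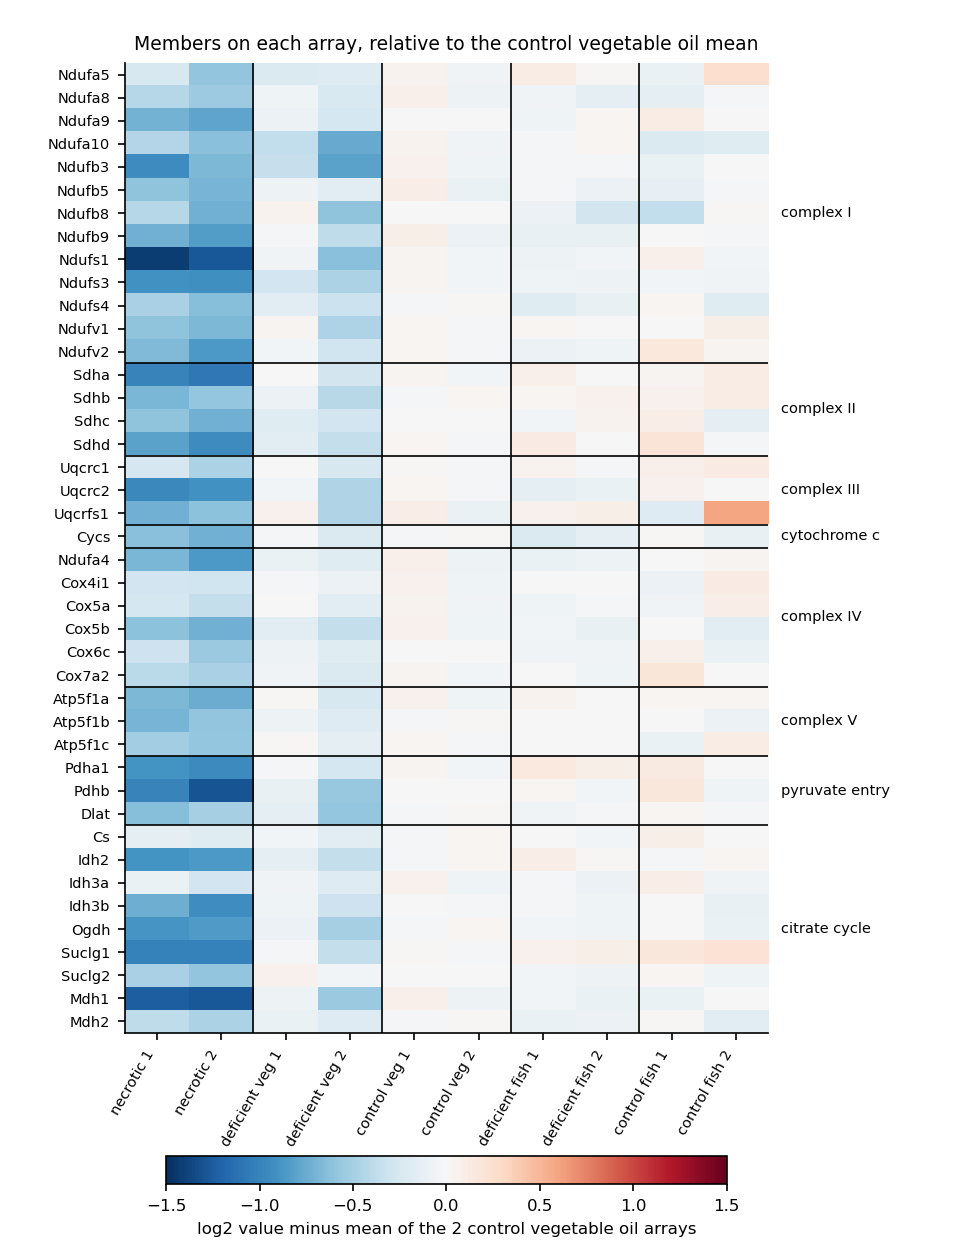
Each cell is 1 of the 42 genes (rows, grouped by complex) on 1 of the 10 arrays (columns, 2 pools per group), coloured by its log2 value minus the mean of the 2 control vegetable oil arrays. Both necrotic columns are blue in nearly every row, down to -1.34 on average for Ndufs1; deficient vegetable oil pool 2 is paler blue; the fish oil columns stay near 0.

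In complex I, which oxidises NADH, 11 of 13 subunits fell, with a median of -0.65. Ndufs1, the largest iron-sulfur subunit of the NADH-oxidising module, read 10.32 and 10.47 in the necrotic pools and 11.78 and 11.71 in the control vegetable oil pools. Its other pools were at 11.69 and 11.11 (deficient vegetable oil), 11.67 and 11.70 (deficient fish oil) and 11.82 and 11.70 (control fish oil). The necrotic pools were the lowest, the second deficient vegetable oil pool lay between, and the remaining pools stayed within a narrow band. The necrotic minus control difference of Ndufs1 was -1.34 ± 0.18 (SE, 2 pools a group, limma adjusted p = 0.00122), a 2.54-fold lower level.

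Ndufs3, a core subunit of the module that hands electrons to ubiquinone, read 10.80 and 10.79 in necrotic pools, 11.43 and 11.24 in deficient vegetable oil, and 11.76 and 11.68 in control vegetable oil pools. Its fish oil pools lay at 11.65 and 11.64 without choline and at 11.67 and 11.66 with it. The groups did not overlap between necrotic, deficient and control vegetable oil kidneys. The fall of 0.92 ± 0.11 in Ndufs3 had the smallest adjusted p among the members (limma adjusted p = 0.000735). Around these core subunits, the NADH-oxidising flavoprotein subunits Ndufv1 and Ndufv2 fell by 0.64 and 0.76, and the accessory subunit Ndufs4 by 0.56.

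In the rest of complex I, the accessory subunit Ndufa9 fell by 0.75, Ndufa8 by 0.49 and Ndufa10 by 0.53. Of the subunits of the outer membrane arm, Ndufb3, Ndufb9 and Ndufb5 fell by 0.81, 0.78 and 0.65. The 2 subunits that missed the threshold were Ndufb8, at -0.58 ± 0.23 (limma adjusted p = 0.110), and Ndufa5, at -0.41 ± 0.16 (limma adjusted p = 0.106). Ndufa5 was at 8.83 and 8.48 in necrotic and 9.12 and 9.01 in control vegetable oil pools, so that its necrotic pools were lower but stood far apart from each other.

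Complex II, or succinate dehydrogenase, belongs to both the chain and the citrate cycle, and all 4 of its subunits fell, with a median of -0.77. Sdha, the flavoprotein that oxidises succinate, read 11.26 and 11.19 in the necrotic pools against 12.27 and 11.98 in deficient vegetable oil and 12.31 and 12.22 in control vegetable oil pools. Its fish oil pools read 12.33 and 12.26 without choline and 12.31 and 12.37 with it. The necrotic pools of Sdha stood below the other 8 arrays, and the deficient and control vegetable oil pools overlapped. Its difference from control was -1.04 ± 0.12 (limma adjusted p = 0.000768). The membrane anchors Sdhd and Sdhc fell by 0.87 and 0.66, and the iron-sulfur subunit Sdhb by 0.63.

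In complex III, which passes electrons from ubiquinol to cytochrome c, 1 of 3 subunits fell. The core subunit Uqcrc2 was at 11.45 and 11.51 in necrotic, 12.38 and 11.97 in deficient vegetable oil, and 12.44 and 12.39 in control vegetable oil pools. Deficient fish oil pools had 12.28 and 12.32 and control fish oil pools 12.49 and 12.43. The necrotic pools were again the lowest, and the difference was -0.94 ± 0.14 (limma adjusted p = 0.00226). The other core subunit, Uqcrc1, differed by -0.36 ± 0.13 (limma adjusted p = 0.0797). The Rieske iron-sulfur protein Uqcrfs1 differed by -0.67 ± 0.25 (limma adjusted p = 0.101); its control fish oil pools, at 10.58 and 11.37, were farther apart than the 2 pools of any group for any other member. Cytochrome c (Cycs), the carrier between complexes III and IV, read 12.71 and 12.62 in necrotic and 13.32 and 13.35 in control vegetable oil pools. It fell by 0.68 ± 0.12 (limma adjusted p = 0.00401), and a second probe set gave -0.71.

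In complex IV, which reduces oxygen to water, 4 of 6 subunits fell and the median was -0.44. Ndufa4, first taken for a complex I subunit and now assigned to complex IV, read 12.84 and 12.66 in necrotic, 13.42 and 13.35 in deficient vegetable oil, and 13.61 and 13.45 in control vegetable oil pools. Its fish oil pools were at 13.43 and 13.45 without choline and 13.53 and 13.57 with it. The fall of 0.78 ± 0.12 (limma adjusted p = 0.0021) in Ndufa4 placed the necrotic pools below all others. Cox5b fell by 0.67, Cox7a2 by 0.44 and Cox6c by 0.44. Cox4i1 and Cox5a, which join the enzyme together early in its assembly, differed by -0.29 ± 0.11 (limma adjusted p = 0.109) and -0.31 ± 0.12 (limma adjusted p = 0.0957). The values of Cox4i1 were 12.61 and 12.59 in necrotic and 12.95 and 12.83 in control vegetable oil pools, a gap without overlap that did not pass the threshold.

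All 3 members of complex V, subunits of its catalytic head and central stalk, fell. Atp5f1a, the alpha subunit, read 12.50 and 12.43 in necrotic, 13.20 and 12.93 in deficient vegetable oil, and 13.24 and 13.11 in control vegetable oil pools. Its fish oil pools read 13.22 and 13.16 without choline and 13.20 in both control pools. The necrotic pools lay below the rest, with a difference of -0.71 ± 0.12 (limma adjusted p = 0.00424). The beta subunit Atp5f1b fell by 0.65, and the gamma subunit Atp5f1c, the rotating shaft, by 0.55.

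The pyruvate dehydrogenase complex, which feeds pyruvate carbon into the cycle, had the most negative median of the 8 divisions, at -0.92, and all 3 of its members fell. Pdhb, the beta subunit of the first enzyme, read 9.82 and 9.52 in necrotic, 10.70 and 10.24 in deficient vegetable oil, and 10.81 and 10.82 in control vegetable oil pools. In fish oil kidneys Pdhb was at 10.85 and 10.77 without choline and 10.99 and 10.75 with it. Its difference was -1.15 ± 0.17 (limma adjusted p = 0.00232), and necrotic pools overlapped with no other group. Pdha1, the alpha subunit, fell by 0.92, and Dlat, the acetyltransferase core, by 0.57.

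In the citrate cycle division 7 of 9 members fell, with a median of -0.83. Mdh1, the cytosolic malate dehydrogenase of the malate-aspartate shuttle, read 11.87 and 11.83 in necrotic, 13.02 and 12.54 in deficient vegetable oil, and 13.18 and 13.03 in control vegetable oil pools. Its fish oil pools were at 13.067 and 13.002 without choline and 13.01 and 13.10 with it. The necrotic pools were far below the rest, and the difference was -1.26 ± 0.16 (limma adjusted p = 0.000963). Suclg1, the alpha subunit of succinyl-CoA ligase, read 11.15 in both necrotic pools and 12.18 and 12.15 in control vegetable oil pools, and fell by 1.02 ± 0.12 (limma adjusted p = 0.000844).

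Further along the cycle, Idh2, the NADP-linked mitochondrial isocitrate dehydrogenase, fell by 0.88, and Ogdh, the first enzyme of the 2-oxoglutarate dehydrogenase complex, by 0.86. Idh3b, a subunit of the NAD-linked isocitrate dehydrogenase, fell by 0.83, while its catalytic partner Idh3a differed by -0.19 ± 0.12 (limma adjusted p = 0.321). The GTP-forming beta subunit of succinyl-CoA ligase, Suclg2, fell by 0.54 and the mitochondrial malate dehydrogenase Mdh2 by 0.43. Cs, whose enzyme activity is often used as a gauge of mitochondrial content, read 11.71 and 11.67 in necrotic pools. Cs was at 11.81 and 11.69 in deficient and 11.82 and 11.88 in control vegetable oil pools, so the necrotic values overlapped those of the deficient group. Its difference was -0.16 ± 0.11 (limma adjusted p = 0.321), with a 95% interval from -0.41 to 0.08; a second, dimmer probe set gave 0.05 ± 0.13. Cs had the smallest difference of the members, and no test compared its difference with theirs.

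**Figure D2:**
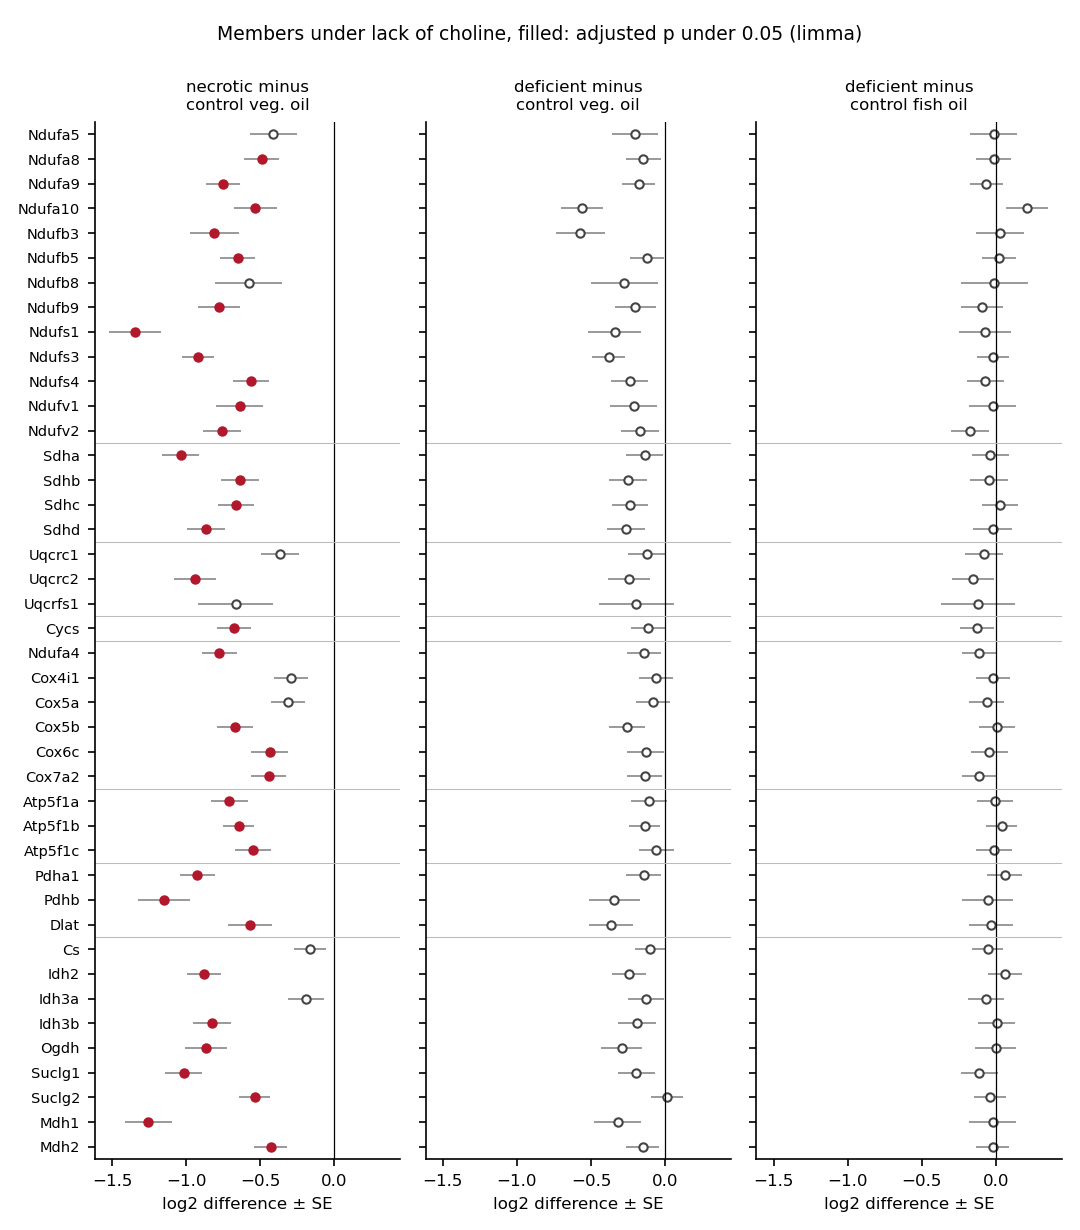
Points are log2 differences of the 42 genes with their standard errors (limma, 2 pools a group), filled where the adjusted p was under 0.05; the panels show necrotic minus control and deficient minus control under vegetable oil and deficient minus control under fish oil. In the first panel 34 points are filled and all 42 lie left of 0; in the other panels 0 are filled.

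The necrotic falls depended in part on single pools. Leaving out 1 necrotic pool left 27 (without pool 1) or 25 (without pool 2) falls, and leaving out 1 control vegetable oil pool left 22 (without pool 1) or 23 (without pool 2). The 21 members that fell in all 4 of these fits were Ndufa9, Ndufb5, Ndufb9, Ndufs1, Ndufs3, Ndufv2, Sdha, Sdhc, Sdhd, Uqcrc2, Cycs, Ndufa4, Atp5f1a, Atp5f1b, Pdha1, Pdhb, Idh2, Idh3b, Ogdh, Suclg1 and Mdh1.

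The next comparison asks whether the genes differed in kidneys that lacked choline without the necrotic label. It shares the control vegetable oil pools with the comparison above. Between deficient and control vegetable oil kidneys 0 of 42 genes passed the threshold, where 0.236% of all probe sets fell, and 4 had an unadjusted limma p under 0.05. Of the differences 41 were negative, with a median of -0.19 and a range from -0.57 (Ndufb3) to 0.01 (Suclg2). In 27 members both deficient pools lay below both control pools, an arrangement seen in 23.8% of all probe sets, and in 15 they overlapped. Single 95% intervals reached from -0.95 (Ndufb3) to 0.38 (Uqcrfs1).

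The deficient vegetable oil pools were unlike each other. The second pool was below the first in 41 of 42 members, with a median difference of -0.21 (second minus first). Without sign, the median gap was 0.21 over the members and 0.20 over all probe sets. The second pool was also the lower for 33 members in necrotic, 30 in control vegetable oil, 25 in deficient fish oil and 24 in control fish oil kidneys. The mean of the 42 centred log2 values was 0.10 in the first pool and -0.15 in the second, against -0.46 and -0.54 in necrotic and 0.21 and 0.15 in control vegetable oil pools. The same mean over 9 tubular injury markers was 0.58 in the first and 1.02 in the second pool, and over 11 macrophage markers 0.14 and 0.63; their part in the gap was not tested. Without the first deficient pool, 2 members fell, Ndufa10 and Ndufb3.

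Ndufa10 departed from the order of the others. It read 8.51 and 8.32 in necrotic, 8.57 and 8.19 in deficient vegetable oil, and 8.99 and 8.90 in control vegetable oil pools. In fish oil kidneys it was at 8.93 and 8.98 without choline and 8.73 and 8.76 with it. Necrotic and deficient vegetable oil pools overlapped, with a difference of 0.03 ± 0.14. Ndufa10 was the single member whose lowest group mean was in deficient vegetable oil; in the other 41 the necrotic mean was lowest. The highest mean was in control fish oil for 22 members, control vegetable oil for 15, deficient fish oil for 4 and deficient vegetable oil for 1.

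Against the deficient vegetable oil kidneys, which had the same diet, 22 of 42 members were lower in necrotic kidneys, where 5.08% of all probe sets were. The median difference was -0.50, the range -1.005 (Ndufs1) to 0.03 (Ndufa10), and in 36 members both necrotic pools lay below both deficient pools, as in 21.2% of all probe sets. The falls comprised 6 of 13 members of complex I, 2 of 4 of complex II, 1 of 3 of complex III, cytochrome c, 1 of 6 of complex IV, all 3 of complex V, 2 of 3 of pyruvate entry and 6 of 9 of the citrate cycle. Sdha differed by -0.90 ± 0.12 (limma adjusted p = 0.00357), Suclg1 by -0.82 ± 0.12 (limma adjusted p = 0.00551) and Pdha1 by -0.78 ± 0.12 (limma adjusted p = 0.00587). These 3 were the members that fell with any 1 of the 4 pools left out. The count became 10 without necrotic pool 1, 4 without necrotic pool 2, 5 without deficient pool 1 and 24 without deficient pool 2. A fit of these 4 arrays alone called 0 members. That fit has fewer degrees of freedom, and its calls over all probe sets are not given here. Its 0 is therefore not a result about the members in particular.

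**Figure D3:**
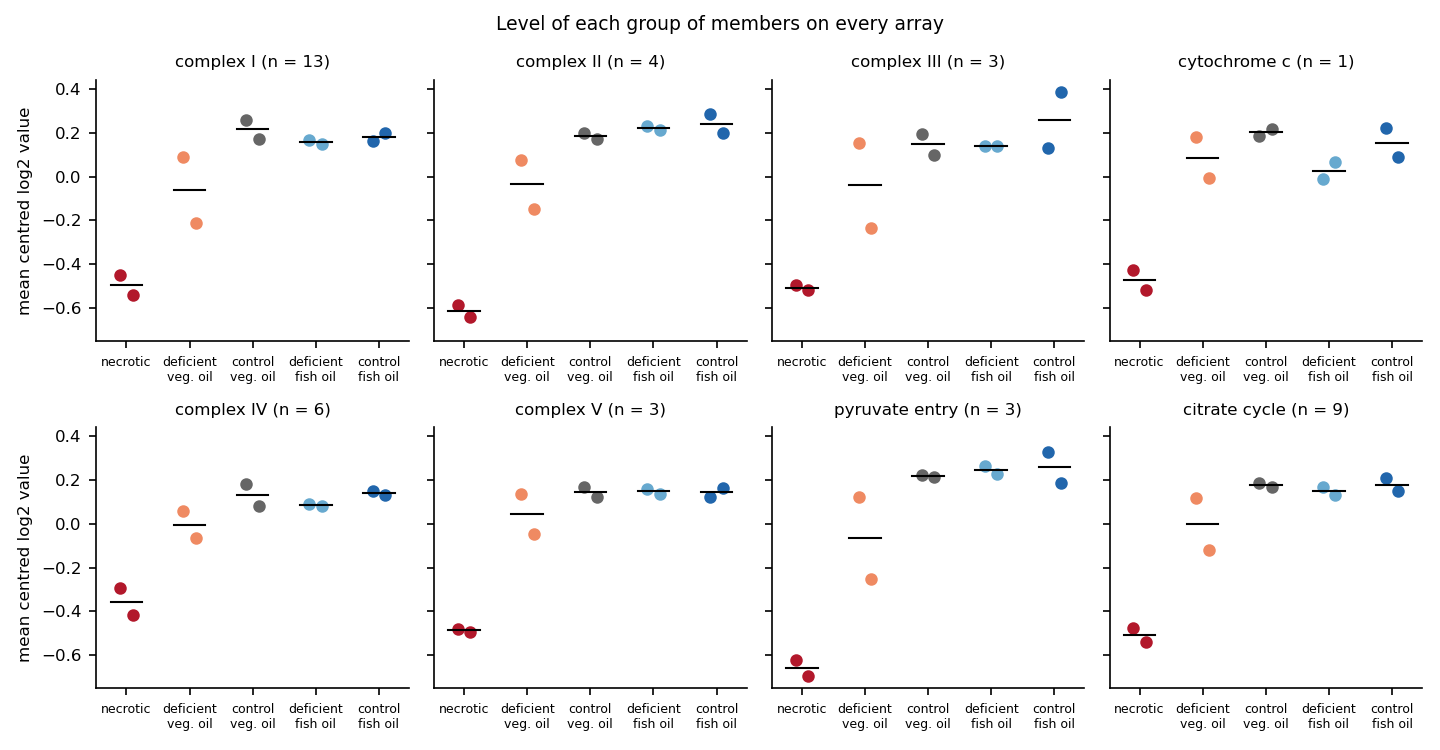
Each point is an array and shows the mean, over the genes of a division, of log2 values centred on each gene's mean over the 10 arrays; bars are group means of 2 pools. In every panel both necrotic points lie lowest. The 2 deficient vegetable oil points stand apart from each other, but in complex IV (0.059 and -0.065) only about as far as the necrotic points (-0.295 and -0.417).

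Under fish oil the lack of choline was accompanied by no called difference. Between deficient and control fish oil kidneys 0 of 42 genes passed the threshold, as did 0% of all probe sets in limma, where 1036 of 29214 had an unadjusted p under 0.05. Among the members 0 had an unadjusted p under 0.05. Their median difference was -0.03, the range -0.18 (Ndufv2) to 0.21 (Ndufa10), and the pools of 32 members overlapped. Both deficient pools were below both control pools in 9 members and above them in 1, against 17.0% and 14.7% of all probe sets. The 95% intervals lay between -0.70 (Uqcrfs1) and 0.53 (Ndufa10). Summed over the 42 genes, the level on the log2 scale was 17.88 and 17.89 in deficient and 17.90 and 17.95 in control fish oil pools, compared with 17.23 and 17.31 in necrotic pools.

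The oils were also compared at equal choline supply. Control fish oil minus control vegetable oil called 0 of 42 members, where 0.185% of all probe sets differed in either direction. The median was 0.01, the range -0.20 (Ndufa10) to 0.20 (Uqcrfs1), and the pools of 36 members overlapped. Both fish oil pools were below both vegetable oil pools in 2 members and above them in 4, against 21.7% and 28.7% of all probe sets. Without choline, deficient fish oil minus deficient vegetable oil called 0 of 42 members, where 0.346% of all probe sets were higher. Of those differences 40 were positive, with a median of 0.14, and in 22 members both fish oil pools lay above both vegetable oil pools, as in 21.2% of all probe sets. The largest was Ndufa10, at 0.57 ± 0.14 (limma adjusted p = 0.108), the next Ndufb3, at 0.55 ± 0.16 (limma adjusted p = 0.186). Ndufa10 passed the threshold without deficient vegetable oil pool 1.

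An interaction term set the necrotic minus control difference under vegetable oil against the deficient minus control difference under fish oil. Only the vegetable oil arm held kidneys labelled necrotic, so oil and necrosis cannot be told apart in it. The term was negative in all 42 members, with a median of -0.67. It passed the threshold in 19, where 4.9% of all probe sets did in that direction. The 19 held 4 members of complex I, 3 of complex II, 1 of complex III, 2 of complex IV, 2 of complex V, 2 of pyruvate entry and 5 of the citrate cycle. Ndufs3 differed by -0.90 ± 0.15 (limma adjusted p = 0.0108) and Pdha1 by -0.98 ± 0.17 (limma adjusted p = 0.0109). With single pools left out the count fell to 10 and 8 (necrotic pools 1 and 2), 1 and 4 (control vegetable oil), 3 and 5 (deficient fish oil) and 9 and 6 (control fish oil). Of the 19 members 0 passed in all 8 of those fits. The same term with deficient in place of necrotic kidneys called 0 members, where 0.00685% of all probe sets were lower, and 3 members had an unadjusted limma p under 0.05.

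Beyond the 42 genes, the remaining nuclear subunits followed. Of 19 further complex I subunits 16 fell and 0 rose between control vegetable oil and necrotic kidneys, where 10.7% of all probe sets fell. Their median was -0.67. Of 21 further subunits of complexes III, IV and V 14 fell and 0 rose, with a median of -0.50. Ndufs8, an iron-sulfur subunit of complex I, fell by 1.05, and Atp5mc1, of the membrane ring of the ATP synthase, by 0.84. The genes encoded by mitochondrial DNA had no matching symbol here, so their transcripts were not analysed here.

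Of 18 further genes of pyruvate entry and the citrate cycle 14 fell and 0 rose, where 10.7% of all probe sets fell. Their median was -0.86. The mitochondrial pyruvate carrier genes Mpc1 and Mpc2 fell by 1.41 ± 0.16 (limma adjusted p = 0.000531) and 1.44 ± 0.19 (limma adjusted p = 0.00123). Pc, pyruvate carboxylase, which makes oxaloacetate from pyruvate, read 10.03 and 9.88 in necrotic pools, 12.65 and 12.24 in deficient and 12.54 and 12.73 in control vegetable oil pools. Its fish oil pools were at 12.59 in both deficient arrays and at 12.42 and 12.45 in control arrays. The fall of 2.68 ± 0.15 (limma adjusted p = 3.06e-05) set the necrotic pools of Pc below those of every other group. Sucla2, the ATP-forming counterpart of Suclg2, fell by 1.20.

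All 7 regulators of pyruvate dehydrogenase passed the threshold, 3 upward and 4 downward. Kinases of this family switch the complex off and phosphatases switch it on. The kinases Pdk1 and Pdk4 rose by 0.88 ± 0.11 (limma adjusted p = 0.000823) and 0.87 ± 0.18 (limma adjusted p = 0.00932), and the kinases Pdk2 and Pdk3 fell by 0.78 and 0.64. The phosphatase subunit Pdp2 fell by 1.71 ± 0.18 (limma adjusted p = 0.000382), the regulatory subunit Pdpr fell by 0.65 and the phosphatase subunit Pdp1 rose by 0.83. Pdk1 read 9.84 and 9.96 in necrotic pools and between 8.89 and 9.10 on the other 8 arrays. Pdk4, by contrast, was highest in fish oil pools, at 11.72 and 11.64 without choline and 11.18 and 11.33 with it, against 10.81 and 11.17 in necrotic and 9.89 and 10.35 in control vegetable oil pools. Deficient fish oil kidneys exceeded deficient vegetable oil kidneys in Pdk4 by 1.22 ± 0.18 (limma adjusted p = 0.0141).

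Of 29 genes of mitochondrial biogenesis 15 fell and 1 rose in necrotic kidneys, where 10.7% of all probe sets fell. Their median difference was -0.44. The nuclear receptor Ppara fell by 1.81 ± 0.22 (limma adjusted p = 0.000757), the estrogen-related receptor Esrrg by 1.51 ± 0.11 (limma adjusted p = 9.63e-05) and the coactivator Ppargc1a by 0.83 ± 0.13 (limma adjusted p = 0.00267). Ppargc1a was at 10.84 and 10.83 in necrotic, 11.26 and 11.10 in deficient vegetable oil, and 11.62 and 11.72 in control vegetable oil pools. These groups did not overlap, but the deficient minus control difference of -0.49 ± 0.13 did not pass (limma adjusted p = 0.139). Tfb2m, a mitochondrial transcription factor, fell by 1.08.

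Other regulators gave smaller values. Esrra differed by -0.34 ± 0.13, Gabpa by -0.28 ± 0.20, Tfam, the packaging factor of mitochondrial DNA, by -0.18 ± 0.14, and Nrf1 by 0.18 ± 0.11, none past the threshold. Pprc1, a coactivator related to Ppargc1a, rose by 0.71 ± 0.12 (limma adjusted p = 0.00361), and had risen by 0.69 ± 0.12 in deficient vegetable oil kidneys (limma adjusted p = 0.0347). Among 23 assembly factors 8 fell and 0 rose, with a median of -0.38, where 10.7% of all probe sets fell. The largest difference was that of Lyrm7, a complex III factor that chaperones Uqcrfs1, at -2.06 ± 0.24 (limma adjusted p = 0.000716).

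**Figure D4:**
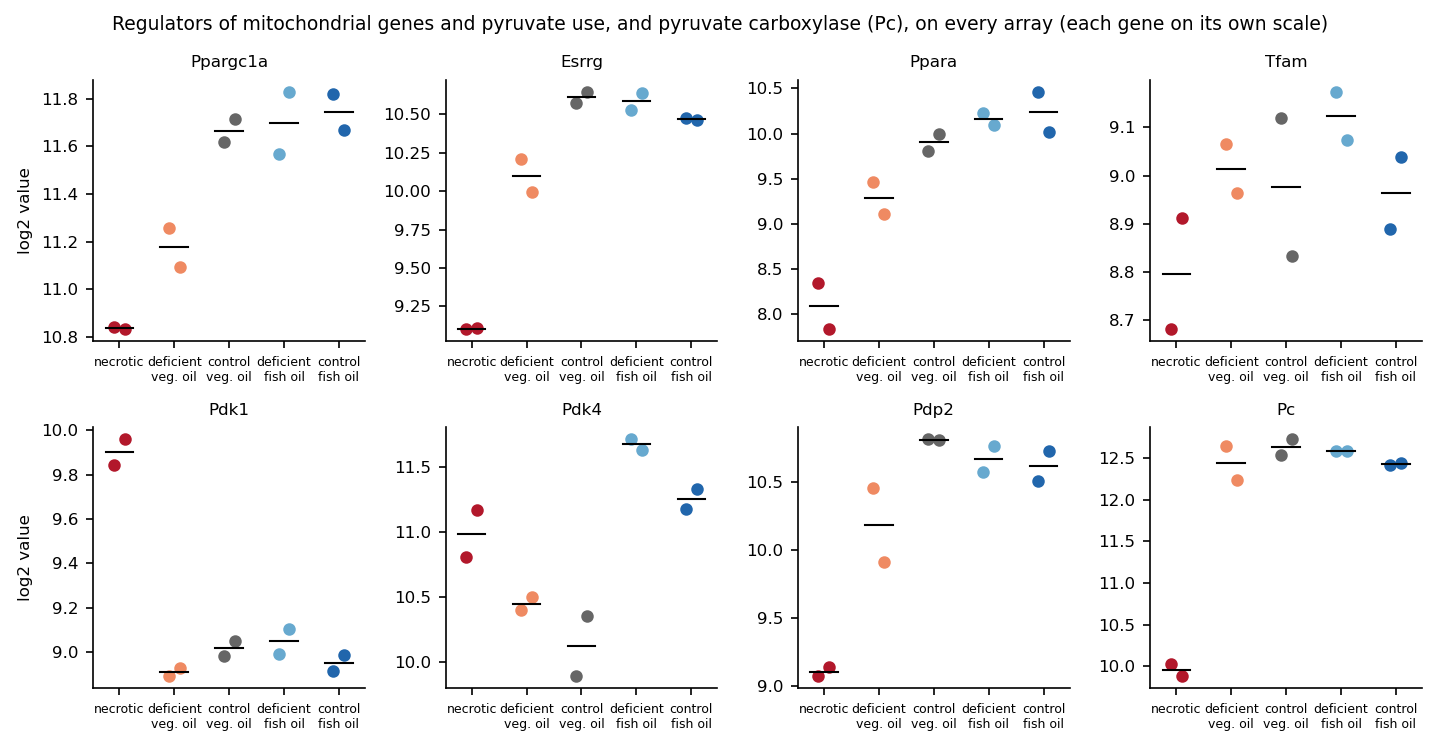
Log2 values of 7 regulators and of Pc, pyruvate carboxylase, on every array (points) with group means of 2 pools (bars), each gene on its own vertical scale. Necrotic points of Ppargc1a, Esrrg, Ppara, Pdp2 and Pc lie below and those of Pdk1 above all other arrays, the necrotic points of Tfam overlap other groups, and Pdk4 is highest in the fish oil groups.

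Lists of other fuel pathways were read in the same kidneys. Of 19 genes of fatty acid oxidation 13 fell and 0 rose from control vegetable oil to necrotic, where 10.7% of all probe sets fell. Their median was -0.80. Of 17 glycolytic genes 8 rose and 1 fell, with a median of 0.36, where 2985 of all 29214 probe sets rose. Between the oils, deficient fish oil minus deficient vegetable oil called 5 of the 19 fatty acid oxidation genes upward, with a median of 0.48. It called 0 of 42 members, where 0.346% of all probe sets were higher. With choline, the mean centred log2 value of the fatty acid oxidation genes was also higher under fish oil. It was 0.51 and 0.44 in control fish oil pools and 0.003 and 0.06 in control vegetable oil pools.

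Markers of kidney cell types moved together with the members. From control vegetable oil to necrotic kidneys 13 of 15 proximal tubule markers fell, where 10.7% of all probe sets did. So did 7 of 11 thick ascending limb and distal and 9 of 11 collecting duct markers. The medians were -1.80, -1.48 and -1.28 in that order. The summed log2 level of the proximal tubule markers was 15.59 to 15.78 in necrotic, 16.84 to 17.07 in deficient vegetable oil, 17.23 to 17.26 in control vegetable oil, 17.12 to 17.19 in deficient fish oil and 17.12 to 17.21 in control fish oil pools. The thick limb and distal markers summed to 13.91 to 13.95, 15.16 to 15.33, 15.59 to 15.61, 15.38 to 15.51 and 15.19 to 15.43 in the same order of groups. Members thus had a smaller median difference than the tubule lists, and the part of tubule cell number in their fall was not tested.

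Markers of other cells rose in the same pools. Among macrophage markers 10 of 11 rose, where 2985 of all 29214 probe sets did. Their summed level was 14.33 to 14.38 in necrotic, 13.40 to 13.87 in deficient vegetable oil and 12.62 to 12.66 in control vegetable oil pools. It was 12.38 to 12.64 in deficient and 12.35 to 12.57 in control fish oil pools. Tubular injury markers rose in 7 of 9, neutrophil markers in 5 of 10 and fibroblast and smooth muscle markers in 6 of 8, while 0 of 6 lymphocyte markers passed. Of endothelial and podocyte markers 3 of 7 and 2 of 6 fell, where 10.7% of all probe sets did. Of markers of neighbouring tissue and blood, 2 of 7 fat and 1 of 7 adrenal markers fell and 1 of 4 erythroid markers rose. These lists are short, and their counts were not tested against the share over all probe sets. The injury markers summed to 15.74 to 15.81 in necrotic, 14.89 to 15.42 in deficient vegetable oil and 13.51 to 13.58 in control vegetable oil pools. In fish oil kidneys they summed to 13.94 and 13.46 in deficient pools 1 and 2, and to 13.38 and 13.54 in control pools. No marker is listed at 0, since the values are log2 intensities, and the part of these cells in the members' differences was not tested.

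**Figure D5:**
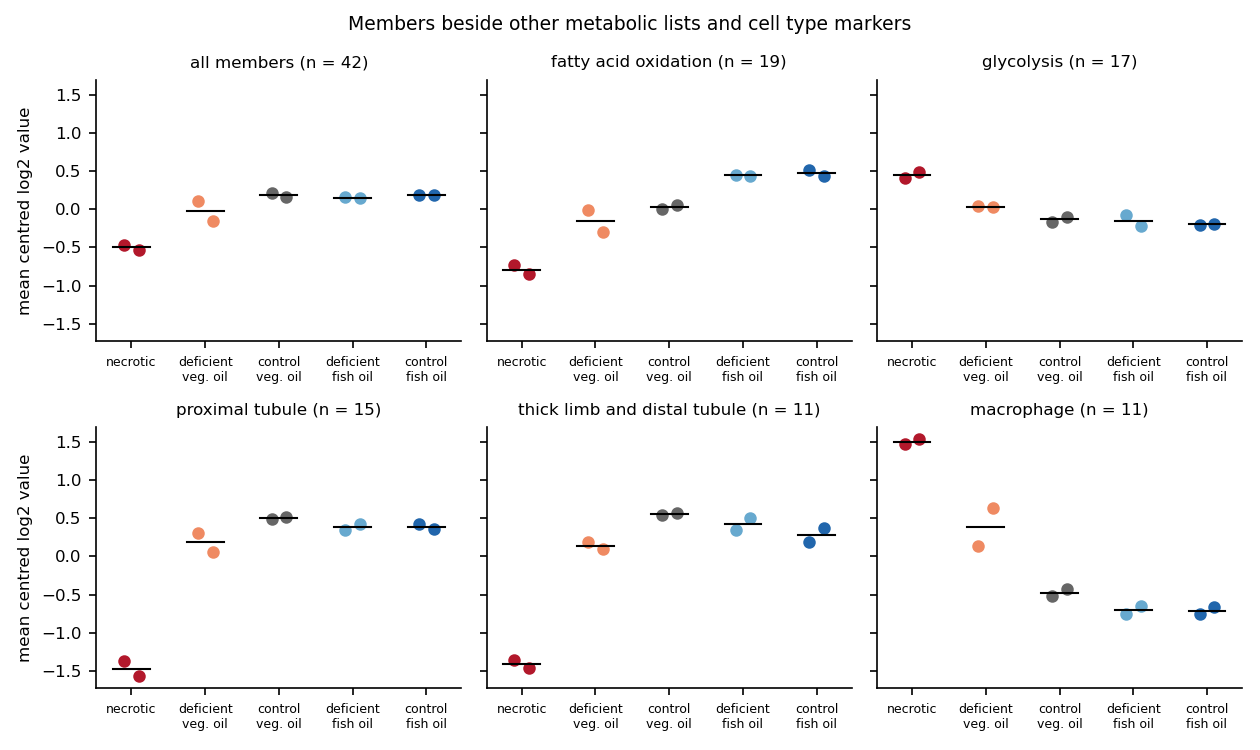
Each point is an array and shows the mean centred log2 value of a gene list, on 1 common vertical scale, with bars at group means of 2 pools. The necrotic points of the 42 members, at -0.46 and -0.54, lie below the others, those of the tubule lists lie lower still, and those of glycolysis and macrophage markers lie above the other arrays.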

How the data were processed

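Kidney RNA of 10 pools (5 groups of 2) was hybridised to 1-colour expression arrays, and the authors deposited log2 intensities, 1 per probe set and array, from RMA, per the submitters' processing notes. The sources used here do not give the software, its version or the definition of the probe sets. Values were used as deposited, without scaling or filter; the number of arrays limits the precision. Genes were named from the platform annotation: of 29214 probe sets 15310 had 1 symbol, 323 several and 13581 were not listed. A single limma model (version 3.58.1 under R 4.3.3, lmFit then eBayes) held all 5 groups and gave 8 contrasts; degrees of freedom were 5 (residual) and 3.59 (prior). Benjamini-Hochberg adjustment ran over every probe set of a contrast, at a threshold of 0.05. The fit was tested on simulated data. Adjusted p in the text are limma's, and intervals are 95% without adjustment.

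The members, gene lists and tests were chosen with earlier results of these data known. The rule named every member, and for other lists the largest differences and the textbook regulators. Every array's value is printed for the member with the largest difference in each division except cytochrome c, and for Ndufs3 and Ndufa10. The rule also asked for the member with the smallest difference in each division, whose arrays are printed in part or not at all. Cross-hybridisation with pseudogenes, as of Cycs, was not tested. Promoters are from RefSeq (GRCr8); Ndufa8, Ndufb9, Idh3a and Cox6c were not matched. Alternatives were median centring, repeated quantile normalization, cyclic loess, a trend and robust prior, a filter at the 50th percentile of the mean, only the groups compared, a replicate block, the mean of all probe sets of a gene, and each pool left out. Figures were drawn with matplotlib 3.10.9 from tables made with pandas 2.3.3 (numpy 2.4.6, Python 3.11.15).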

Additional observations from a re-analysis of the deposited data

Results flagged for a closer look

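The necrotic minus control difference under vegetable oil and the deficient minus control difference under fish oil differed, by the limma interaction term, in 19 of 42 members, each with the more negative difference under vegetable oil. In the chain the term was -1.27 for Ndufs1, -0.90 for Ndufs3, -0.69 for Ndufa9 and -0.68 for Ndufb5 of complex I, and -0.997 for Sdha, -0.84 for Sdhd and -0.69 for Sdhc of complex II. It was -0.78 for Uqcrc2 of complex III, -0.68 for Cox5b and -0.66 for Ndufa4 of complex IV, and -0.70 for Atp5f1a and -0.68 for Atp5f1b of complex V. Among the enzymes that feed the chain it was -1.23 for Mdh1, -1.09 for Pdhb, -0.98 for Pdha1, -0.94 for Idh2, -0.90 for Suclg1, -0.86 for Ogdh and -0.83 for Idh3b. The vegetable oil arm holds kidneys labelled necrotic and the fish oil arm holds none, so oil and necrosis cannot be told apart in this term. Without control vegetable oil pool 1 it called 1 member, Idh2.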

How the results depend on the processing

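Across 504 recalculations of single members in the necrotic minus control vegetable oil comparison, 450 stayed on the same side of the threshold, 44 lost the call (39 with a pool left out), 10 gained it and 0 reversed. The median difference of the members, -0.67, was -0.77 after array median centring, -0.60 after repeated quantile normalization and -0.61 after cyclic loess. The count of members called there ranged from 22 to 27 with 1 pool left out; the lone remaining pool is then assumed to vary like the other groups. With pools left out, the counts ranged from 0 to 2 for deficient minus control vegetable oil, from 4 to 24 for necrotic minus deficient vegetable oil, from 0 to 1 for deficient fish minus deficient vegetable oil, and from 1 to 10 for the necrotic interaction. With only the groups compared in the fit, necrotic minus deficient vegetable oil called 0 members. That fit has fewer degrees of freedom, and its calls over all probe sets are not given here. The filter at the 50th percentile of the mean called 1 member in deficient fish minus deficient vegetable oil, Ndufa10. With the replicate number as a replicate block, 34 members were called in necrotic minus control vegetable oil, the same count as without it, and 17 in the necrotic interaction. Deviations of same-numbered pools correlated between -0.17 and 0.14 over 10 pairs of groups, 3 of them over 0.1. The labels do not say whether same-numbered pools share more than the number, and these correlations cannot settle it.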

Other observations

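Among 8 tissue or hypoxia isoforms of the chain, 1 fell and 1 rose in necrotic against control vegetable oil kidneys. Of all probe sets 10.7% fell and 2985 of 29214 rose there. Cox8b, the heart, muscle and brown fat form of a complex IV subunit, read 6.86 and 5.31 in necrotic and 8.06 and 8.65 in control vegetable oil pools, and 9.02 and 7.51 in deficient fish oil pools. It fell by 2.27 ± 0.56 (limma adjusted p = 0.0212). Ucp1, the uncoupling protein of brown fat, read 7.35 and 5.90 in necrotic, 10.36 and 10.99 in control vegetable oil and 10.73 and 8.55 in deficient fish oil pools. These were the 2 of 7 fat markers that fell, the list's median was -0.25, and Fabp4 and Lep differed by 0.23 ± 0.35 and 0.28 ± 0.14. The part of fat tissue in these differences was not tested. Cox6b2, the testis form of a complex IV subunit, rose by 0.85 ± 0.21 (limma adjusted p = 0.0242), and Cox4i2, a form induced by low oxygen, differed by -0.28 ± 0.19 (limma adjusted p = 0.355).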
